A study of Homo sapiens with 6 samples.

Results

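The 33 genes described here are markers, regulators and prognostic score genes of blood stem cells, progenitors and leukaemic stem cells. They were taken from a list of names that was chosen with earlier results of these data known. Shares of all genes printed beside their counts are therefore descriptive and test no enrichment. The names were looked up among the 27722 genes of 6 RNA-seq libraries of MUTZ3. MUTZ3 is a human acute myelomonocytic leukaemia line with an inversion of chromosome 3 that depends on the protein EVI1. The cells were transduced with a retroviral construct and sampled at 72 h. PLDLS libraries carried p50MX-3xFLAG-3xNLS-4xPLDLS-Zeo, whose peptide blocks the contact of EVI1 with the corepressor CTBP, and PLASS libraries carried p50MX-3xFLAG-3xNLS-4xPLASS-Zeo, whose peptide does not. Empty vector (EV) replicate 1 carried p50MX-3xFLAG and EV replicate 2 carried p50MX-Zeo, so vector and replicate number cannot be told apart in that group. Neither EV construct is labelled with the 3xNLS element that both peptide constructs share. Each group had 2 libraries, and all cells grew in αMEM with fetal calf serum and medium conditioned by 5637 cells. The labels do not say whether the replicates are separate cultures. A p-value here therefore reflects the spread between libraries alone, and that spread may be technical. All values are from 1 cell line.

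Blood stem cells renew themselves and feed progenitors that divide and then mature. Their state is held by transcription factors such as HLF and MYB, by chromatin readers such as MLLT3, and by signals that pass through surface receptors and cytokine inhibitors. In acute myeloid leukaemia a small set of cells keeps such a programme, and expression scores built from stem cell genes track poor outcome. EVI1, encoded by MECOM, is a stem cell transcription factor that is overexpressed when chromosome 3 is inverted.

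Depth ran from 5582078 estimated reads in PLDLS replicate 2 to 35800826 in EV replicate 1. Of the 33 genes, 26 passed the expression filter and were tested, and 7 did not. In bulk RNA, fewer cells of a type and less RNA per cell cannot be told apart. The labelled cell type was checked against markers. CD34 lay above 98.8% of tested genes by TPM (reads scaled for transcript length and library). Of 14 erythroid markers HBA1, HBB, CA1 and AHSP were at 0 in all 6 libraries and the summed level was 3.16 to 6.68 CPM (counts scaled to library size with TMM factors). Among monocyte markers, the CSF1 receptor gene CSF1R stood at 129 to 211 TPM and the lysozyme gene LYZ at 56.0 to 76.3 TPM, whereas CD14 stood at 1.29 to 4.13 TPM. Of 10 megakaryocyte markers PF4 was at 0 in all 6 libraries, while the integrin ITGA2B stood at 66.3 to 120 TPM. The summed level of the 10 was 120 to 214 CPM.

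By TPM, CD34 had the highest mean level of the 33 genes, at 685. DNMT3B at 259, ANGPT1 at 251, FAM30A at 223 and LAPTM4B at 211 followed. DNMT3B is a de novo DNA methyltransferase, ANGPT1 a secreted ligand of the TIE2 receptor, FAM30A a long noncoding RNA and LAPTM4B a lysosomal membrane protein. The lowest of the tested genes were CRHBP at 2.07 and MMRN1 at 0.544, which encode a corticotropin-releasing hormone binding protein and the matrix protein multimerin. The regulators HLF at 39.7 and MLLT3 at 18.5 sat in the middle of the order.

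Some textbook surface markers of blood stem cells were at or near 0. THY1 (CD90) had 1 estimated read in PLASS replicate 1 and 0 in the other 5 libraries. PROM1 (CD133) had 6 and 1 reads in PLDLS replicates 1 and 2, 11 and 4 in PLASS and 24 and 4 in EV. MYCT1, a MYC target associated with stem cells and endothelium, had 0 reads in all 6 libraries. A count of 0 in the shallowest library, PLDLS replicate 2, allows up to 0.537 CPM before TMM scaling, and in the deepest, EV replicate 1, up to 0.0838; these limits cover counting error only. Among the other untested genes, AKR1C3, an aldo-keto reductase with close paralogues, had 1 read in EV replicate 1, and BEX3, a small adaptor protein, had 1 read each in PLASS replicate 1 and EV replicate 1. DPYSL3, a cytoskeletal regulator, had 3 and 5 reads in PLDLS, 0 and 2 in PLASS and 1 and 2 in EV. AVP, whose transcript marks the most primitive cells of human marrow, had 2 and 2 reads in PLDLS, 3 and 4 in PLASS and 11 and 4 in EV.

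**Figure D1:**
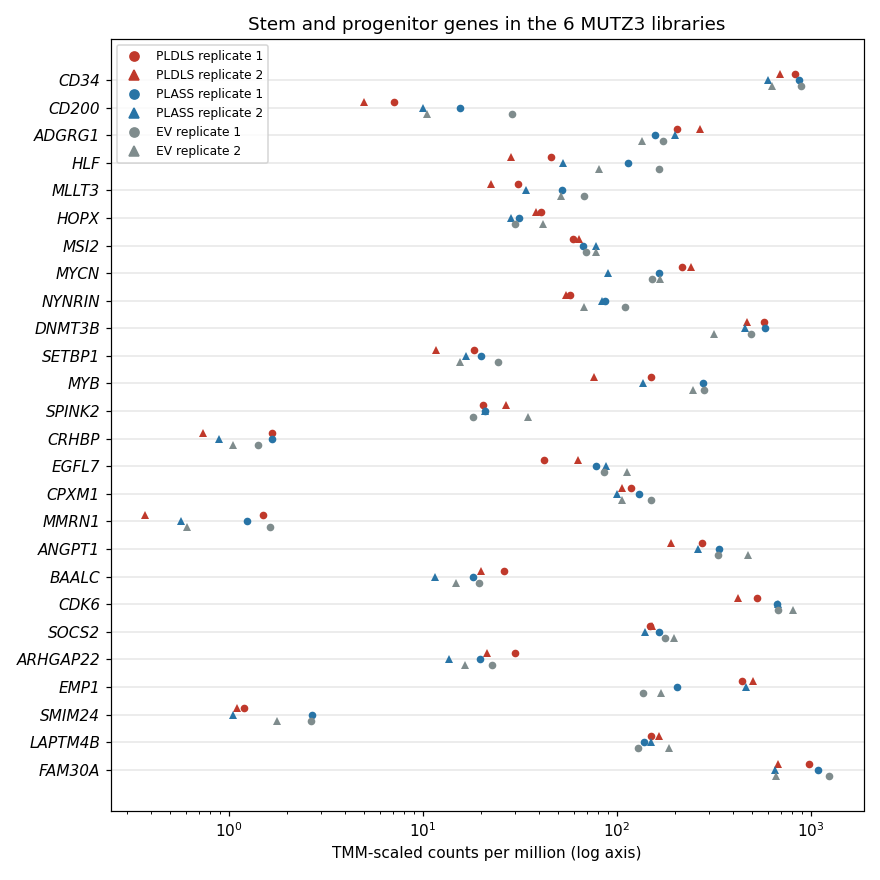
The 26 tested genes are listed by role on the vertical axis, and TMM-scaled CPM are on a logarithmic horizontal axis. Each point is 1 library, circles are replicate 1 and triangles replicate 2. CD34 and FAM30A lie farthest right, CRHBP, MMRN1 and SMIM24 farthest left.

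The comparison of PLDLS with PLASS sets the peptide labelled as blocking the contact of EVI1 with CTBP against the inactive peptide. Whether that contact was lost in these cells was not measured. Without the replicate number as a block, 0 of the 26 genes passed an adjusted p of 0.05 (edgeR quasi-likelihood test, Benjamini-Hochberg over 14631 genes), as did 0% of all tested genes. At an unadjusted p under 0.05 there were 6 of 26, against 4.93% of all tested genes. DESeq2 and limma-voom without the block also called 0 of the 26, beside 0.663% of all genes higher and 0.164% lower with DESeq2 and 0% with limma-voom. Libraries that share a replicate number deviated together across genes. With the number as a block (the replicate block), 1 of 26 genes was lower in PLDLS and 0 were higher, against 0.513% of all tested genes lower and 1.52% higher. The gene was HLF.

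Against EV, 5 of the 26 genes were lower in PLDLS with the replicate block, HLF, MLLT3, MYB, CD200 and EGFL7, against 1% of all tested genes. EMP1 was the 1 gene of 26 that was higher, against 3.24% of all tested genes. Without the block 0 of 26 passed in this comparison, as against 0.0137% of all genes, and 10 of 26 had an unadjusted p under 0.05, against 7.16%. DESeq2 without the block called 4 of 26, with EMP1 higher (1.46% of all genes) and HLF, MLLT3 and CD200 lower (0.369%). Without the block limma-voom called 0 of 26, beside 0.0342% of all genes higher and 0% lower. PLDLS enters both comparisons with the same libraries, so their values are given side by side and are not independent. The alternatives counted below reuse these libraries, so a tally of those that passed does not count independent tests. For PLDLS against PLASS with the block, leaving out an EV library nearly repeats the fit of only the 2 groups compared.

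The promoters of 5 of these 6 genes are shown so that their sequences can be read beside the expression values. Each is the stretch outside annotated exons within the 250 bases before the gene's start, from RefSeq on GRCh38.p14, written 5′ to 3′ on the gene's strand. Capitals mark a match to the RUNX motif TGTGGT or its other-strand form ACCACA. The CD200 window (chr3:112332906-112333155) precedes a start inside the gene's span, lies wholly in annotated exon and is not printed. For HLF and MYB, the first bases after the start were not found in GENCODE transcripts of these genes.
HLF (chr17:55264710-55264959, plus strand): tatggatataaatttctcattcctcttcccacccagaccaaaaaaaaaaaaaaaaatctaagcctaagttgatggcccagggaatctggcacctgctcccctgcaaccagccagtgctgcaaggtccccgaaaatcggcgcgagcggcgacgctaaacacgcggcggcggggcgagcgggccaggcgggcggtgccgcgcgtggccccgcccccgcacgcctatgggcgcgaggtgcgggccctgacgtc
MLLT3 (chr9:20622544-20622749, minus strand): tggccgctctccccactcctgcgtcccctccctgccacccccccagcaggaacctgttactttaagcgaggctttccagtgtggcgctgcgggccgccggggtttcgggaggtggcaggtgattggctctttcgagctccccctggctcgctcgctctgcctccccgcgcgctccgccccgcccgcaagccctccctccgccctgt
EGFL7 (chr9:136658606-136658855, plus strand): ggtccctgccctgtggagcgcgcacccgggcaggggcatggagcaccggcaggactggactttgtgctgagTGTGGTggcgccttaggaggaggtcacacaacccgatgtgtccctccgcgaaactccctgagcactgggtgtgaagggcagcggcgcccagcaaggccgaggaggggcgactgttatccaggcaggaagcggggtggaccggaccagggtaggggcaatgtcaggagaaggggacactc
MYB (chr6:135181058-135181307, plus strand): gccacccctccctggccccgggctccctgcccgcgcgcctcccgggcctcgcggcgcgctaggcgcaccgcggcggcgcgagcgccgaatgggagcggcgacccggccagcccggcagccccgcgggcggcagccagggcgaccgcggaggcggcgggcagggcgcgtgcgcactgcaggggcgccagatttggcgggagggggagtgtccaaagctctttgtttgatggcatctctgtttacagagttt
EMP1 (chr12:13196476-13196715, plus strand): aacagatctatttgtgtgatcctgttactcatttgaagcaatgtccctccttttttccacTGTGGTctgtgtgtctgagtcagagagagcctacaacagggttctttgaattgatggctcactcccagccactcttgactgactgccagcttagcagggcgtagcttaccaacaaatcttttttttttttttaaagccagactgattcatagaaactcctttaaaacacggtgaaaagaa

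Of the 33 genes, 28 matched the table of 27305 promoters. The RUNX letters lay in the windows of EGFL7 and EMP1, that is in 2 of 28, and in 10.9% of all promoters. GATA letters (AGATAA or TTATCT) were in the windows of AKR1C3 and MYCT1 and in 9.37% of all promoters, and ETS letters (CCGGAA or TTCCGG) in that of ARHGAP22 and in 14.8%. The letters bound by the first group of EVI1 zinc fingers (GACAAGATA or TATCTTGTC) were in 0 of the 28 windows and in 0.0989% of all promoters. Those of the second group (GAAGATGAG or CTCATCTTC) were in 0 of the 28 and in 0.26%. The PAR bZIP letters that HLF binds (TTANGTAA or TTACNTAA) were in the AKR1C3 window and in 2.07% of all promoters. Over the 11368 promoters of tested genes the shares were 7.98% for RUNX, 4.96% for GATA, 24.6% for ETS and 1.16% for PAR bZIP letters. For the first and second group of EVI1 fingers they were 0.0352% and 0.238%. The 28 windows include those of AKR1C3 and MYCT1, which were not tested. Some windows, among them those of CD200, DNMT3B, HOPX and SETBP1, precede a start inside the gene's annotated span. None of the letters searched contains another, both strands were read, and a match describes the window only. The windows differed in base composition. MYB had 75.6% G or C and 34 CpG and HLF 62.4% and 25, while EMP1 had 42.4% and 3, beside medians of 58% and 11 over all promoters.

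HLF (chr17:55264960-55325187, GRCh38) encodes a PAR bZIP transcription factor of blood stem cells. It stood at 46.1 and 28.4 CPM in PLDLS replicates 1 and 2, at 115 and 52.7 in PLASS and at 166 and 81.3 in EV. Both PLDLS libraries lay below all 4 others, while PLASS and EV overlapped. With the replicate block HLF was 2.18-fold lower in PLDLS than in PLASS (log2 -1.13 ± 0.15 SE, adjusted p = 0.0104). Over 13 alternatives with the block the adjusted p ran from 8.76e-07 to 0.113, and 11 passed. The 2 that did not left out PLDLS replicate 1 (adjusted p = 0.0631, log2 -0.92) or PLASS replicate 1 (adjusted p = 0.113, log2 -0.99). Without the block the adjusted p was 0.899. Against EV the fall was 3.25-fold (log2 -1.70 ± 0.15, adjusted p = 0.00161 blocked and 0.287 unblocked), and all 13 blocked alternatives passed. From EV to PLASS the log2 difference was -0.57 ± 0.14, which did not pass (adjusted p = 0.761).

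MLLT3 (chr9:20341669-20622499), a reader of acylated histones that maintains human blood stem cells, had 31.1 and 22.5 CPM in PLDLS, 52.3 and 34.1 in PLASS and 68.1 and 51.7 in EV. PLDLS was below every PLASS and EV library. Its level was 2.25-fold lower in PLDLS than in EV (log2 -1.17 ± 0.15, adjusted p = 0.00453 with the block, 0.238 without), and 13 of 13 blocked alternatives passed. Against PLASS the log2 difference was -0.68 ± 0.15 and did not pass (adjusted p = 0.063). DESeq2 with the block gave an adjusted p of 0.0306 for that difference, and 5 of 13 blocked alternatives passed.

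MYB (chr6:135181308-135219172), a transcription factor that drives progenitor growth, had 151 and 76.1 CPM in PLDLS, 280 and 136 in PLASS and 283 and 247 in EV. Both PLDLS libraries were below both EV libraries, and PLDLS replicate 1 was above PLASS replicate 2. The difference from EV was log2 -1.31 ± 0.21 (adjusted p = 0.0105 with the block, 0.439 without), and 13 of 13 blocked alternatives passed. Within replicate number 1 the log2 difference from PLASS was -0.88 and within number 2 it was -0.84, yet the blocked test of PLDLS against PLASS did not pass (adjusted p = 0.0859). In that comparison 7 of 13 blocked alternatives passed, DESeq2 among them (adjusted p = 0.00349).

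CD200 (chr3:112332573-112362812) encodes an immune inhibitory surface protein found on leukaemic stem cells. It had 7.13 and 5.01 CPM in PLDLS, 15.5 and 10.1 in PLASS and 28.8 and 10.5 in EV. PLDLS did not overlap the other groups, and EV replicate 1 stood apart from the rest. Against EV the log2 difference was -1.65 ± 0.27 (adjusted p = 0.0117 with the block, 0.351 without). Leaving out PLDLS replicate 1 ended that call (adjusted p = 0.131, log2 -1.30), and the other 12 blocked alternatives passed. Against PLASS it was -1.13 ± 0.27 (adjusted p = 0.093 with the block, 0.0359 with DESeq2 and the block), and 5 of 13 blocked alternatives passed.

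EGFL7 (chr9:136658856-136672678), a secreted protein of endothelium and of leukaemic blasts, had 42.2 and 63.5 CPM in PLDLS, 77.9 and 88.0 in PLASS and 86.3 and 113 in EV. Unlike the 4 genes above, it was higher in replicate 2 of every group, and PLDLS again lay below all other libraries. Against EV the log2 difference was -0.93 ± 0.14 (adjusted p = 0.00945 with the block, 0.288 without). Leaving out PLDLS replicate 1 ended the call (adjusted p = 0.0734). Against PLASS it was -0.68 ± 0.14 (adjusted p = 0.053), and limma-voom with the block gave an adjusted p of 0.0459; 7 of 13 blocked alternatives passed.

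EMP1 (chr12:13196726-13219941), an epithelial membrane protein and a gene of the 17-gene leukaemic stem cell score, went the other way. It had 440 and 504 CPM in PLDLS, 204 and 465 in PLASS and 136 and 169 in EV. PLDLS and EV did not overlap, whereas PLASS replicate 2 lay between the PLDLS libraries and PLASS replicate 1 near EV. The rise over EV was 3.12-fold (log2 1.64 ± 0.23, adjusted p = 0.00632 with the block, 0.184 without), and 13 of 13 blocked alternatives passed. From EV to PLASS the log2 difference was 1.05 ± 0.22 and did not pass with the block (adjusted p = 0.55). DESeq2 with the block gave an adjusted p of 0.00209, and 4 of 13 blocked alternatives passed. PLDLS against PLASS gave 0.59 ± 0.22 (adjusted p = 0.32), and 2 of 13 blocked alternatives passed. Over these the log2 difference ran from 0.14 to 1.08, the highest without PLASS replicate 2.

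**Figure D2:**
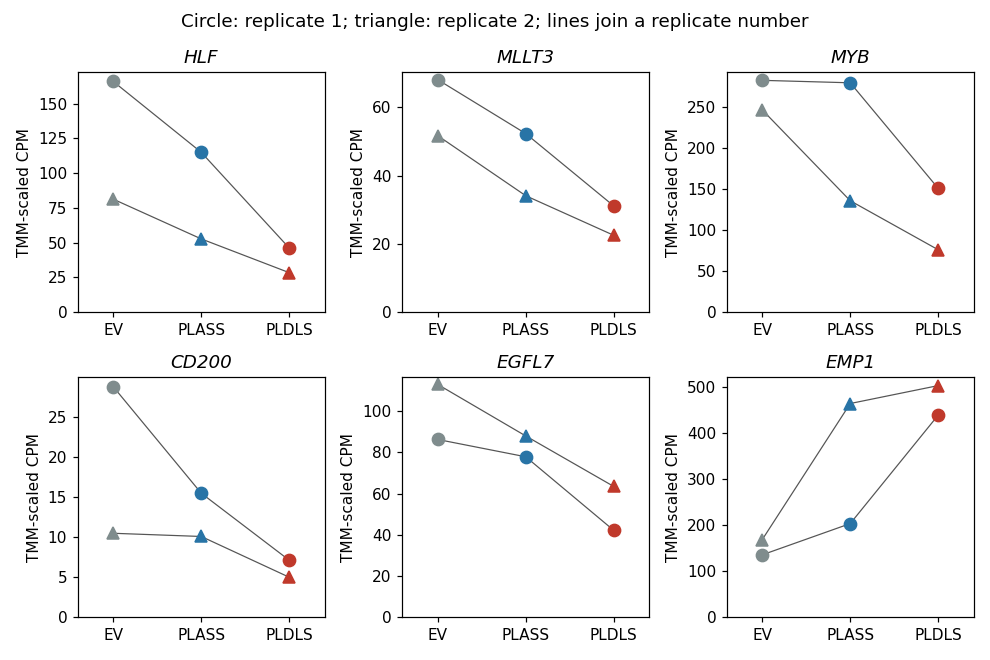
TMM-scaled CPM of 6 genes on a linear vertical axis that starts at 0, with the groups EV, PLASS and PLDLS along the horizontal axis. Each point is 1 library, and lines join libraries of the same replicate number. HLF, MLLT3, MYB, CD200 and EGFL7 are lower in PLDLS than in EV within both numbers, and EMP1 is higher.

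The order EV, then PLASS, then PLDLS, falling within both replicate numbers, was shown by 6 of 26 genes, HLF, MLLT3, CD200, EGFL7, CDK6 and MYB, against 5.18% of all tested genes. EMP1 alone among the 26 rose in that order within both numbers, against 7% of all genes. Some steps in these orders were small. From EV to PLASS the log2 step was -0.02 for MYB and for CDK6 within number 1, and -0.05 for CD200 within number 2. From PLASS to PLDLS the step of EMP1 was 0.12 within number 2. PLDLS was below PLASS within both numbers for 11 of 26 genes (31.5% of all genes) and above it for 7 (30.4%). Against EV it was below for 14 (28.1%) and above for 6 (28.8%). The groups did not overlap for 7 genes lower and 5 higher in PLDLS than in PLASS, against 14.3% and 14.9% of all genes, and for 11 lower and 4 higher than in EV, against 13.5% and 16.4%. The median log2 difference of the 26 genes with the block was -0.04 against PLASS and -0.20 against EV, beside -0.01 and -0.02 over all tested genes.

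Among the remaining surface genes, CD34, a sialomucin of progenitors, had 830 and 692 CPM in PLDLS, 875 and 605 in PLASS and 894 and 629 in EV. All 3 groups overlapped, with log2 differences of 0.06 ± 0.14 against PLASS and 0.02 ± 0.14 against EV. ADGRG1 (GPR56), an adhesion receptor of stem cells, had 205 and 270 CPM in PLDLS, 157 and 199 in PLASS and 174 and 135 in EV. PLDLS was the highest group, without a pass (log2 0.60 ± 0.19 against EV, adjusted p = 0.139).

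Of the 9 tested nuclear genes, HLF, MLLT3 and MYB passed against EV and 6 did not. MYCN, a MYC family transcription factor, had 217 and 242 CPM in PLDLS, 166 and 90.6 in PLASS and 153 and 168 in EV. PLDLS lay above all other libraries. The log2 difference from PLASS was 0.86 ± 0.23 (adjusted p = 0.13 with the block, 0.00969 with DESeq2 and the block). It was 0.39 within number 1 and 1.41 within number 2, and 6 of 13 blocked alternatives passed. NYNRIN, a score gene with an endonuclease domain, had 57.4 and 55.1 CPM in PLDLS, 87.6 and 83.8 in PLASS and 110 and 67.7 in EV, with the 2 PLDLS libraries lowest (log2 -0.61 ± 0.18 against PLASS, adjusted p = 0.161). The other nuclear genes had smaller differences from PLASS: 0.41 for HOPX, a homeodomain-only cofactor, -0.23 for the RNA-binding protein MSI2, 0.01 for DNMT3B and -0.30 for SETBP1, a SET-binding protein. Their adjusted p-values were 0.463, 0.597, 1 and 0.663.

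In the signalling group CDK6, the G1 kinase that gates exit of stem cells from rest, had 529 and 423 CPM in PLDLS, 671 and 676 in PLASS and 681 and 811 in EV. PLDLS was lowest and the 3 groups did not overlap, with log2 differences of -0.50 ± 0.16 against PLASS (adjusted p = 0.218) and -0.65 ± 0.16 against EV (adjusted p = 0.0652). SOCS2, a feedback inhibitor of cytokine receptors, differed by -0.03 against PLASS and -0.32 against EV, and neither passed. BAALC, a marker of immature blasts, and ARHGAP22, a RAC GTPase-activating protein, had PLDLS values above both PLASS libraries but did not pass. BAALC had 26.2 and 19.9 CPM in PLDLS, 18.1 and 11.6 in PLASS and 19.6 and 14.8 in EV, and ARHGAP22 had 30.0 and 21.5, 19.8 and 13.6, and 22.7 and 16.6. For both, PLDLS stood above PLASS by log2 0.64 ± 0.17 (adjusted p = 0.127) and 0.63 ± 0.16 (adjusted p = 0.114).

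Among the secreted proteins other than EGFL7, ANGPT1 had 274 and 190 CPM in PLDLS, 337 and 262 in PLASS and 334 and 476 in EV. PLDLS overlapped PLASS but lay below EV, by log2 -0.82 ± 0.23 (adjusted p = 0.0946). The log2 difference was -0.29 within number 1 and -1.32 within number 2. The protease inhibitor SPINK2, the carboxypeptidase-like CPXM1, CRHBP and MMRN1 differed from PLASS by 0.14, -0.03, -0.04 and 0.09, and from EV by -0.11, -0.18, 0.03 and -0.21. Their groups overlapped in both comparisons. CRHBP and MMRN1 stood between 0.371 and 1.68 CPM, so these 2 were measured with standard errors of 0.38 to 0.43. Among the membrane proteins, LAPTM4B differed by 0.13 from PLASS and 0.03 from EV, and SMIM24, at 1.05 to 2.69 CPM, by -0.80 ± 0.41 and -1.04 ± 0.39 (adjusted p = 0.538 and 0.23). FAM30A differed by -0.04 and -0.16.

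**Figure D3:**
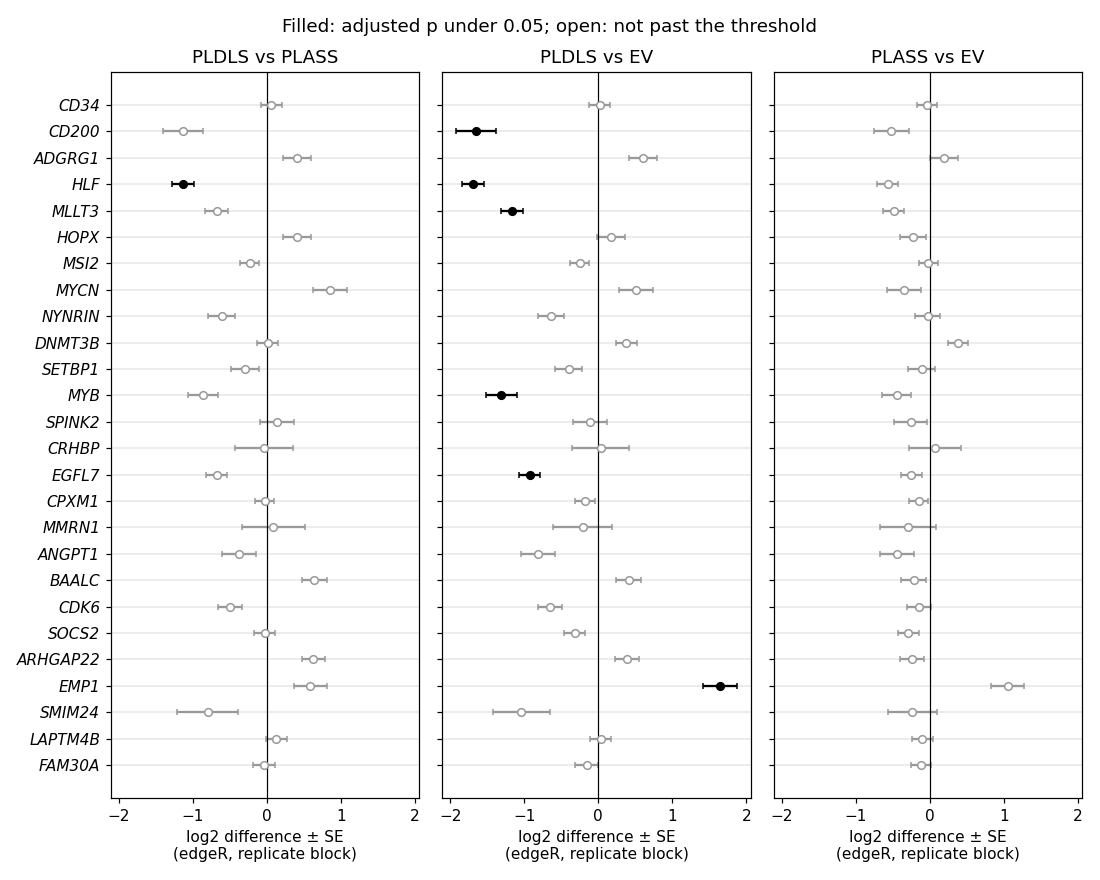
The log2 difference and its SE from edgeR with the replicate block are on the horizontal axis, 1 panel per comparison, with the 26 tested genes on the vertical axis. Filled points passed the adjusted p of 0.05: HLF in PLDLS against PLASS, 6 genes in PLDLS against EV, and 0 genes in PLASS against EV.

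PLASS against EV sets the construct with the inactive peptide beside the empty vectors. With the block 0 of 26 genes passed, as against 0.0137% of all tested genes in either direction, and 4 of 26 had an unadjusted p under 0.05, against 3.35%. Without the block 0 passed and 1 had an unadjusted p under 0.05, against 0.69%, while DESeq2 and limma-voom called 0 of 26 without the block, beside 0.0137% of all genes higher and 0.00683% lower with DESeq2 and 0% with limma-voom. PLASS was below EV within both numbers for 13 of 26 genes, against 20.4% of all genes, and above it for EMP1 and DNMT3B, against 23.5%. The median log2 difference was -0.23 beside 0.00 over all genes. MECOM, by the reads assigned to it, had 605 and 519 CPM in PLDLS, 531 and 342 in PLASS and 129 and 88.2 in EV. It was higher in PLASS than in EV with the block (log2 2.0 ± 0.15, adjusted p = 0.00563), and higher in PLDLS than in EV (log2 2.40 ± 0.15, adjusted p = 0.000803). Whether any of the reads assigned to MECOM came from the constructs was not checked. The part of MECOM in the values of the 26 genes against EV was not tested.

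The libraries also differed by replicate number. With group as a block, 11 of 26 genes were lower in replicate 2 (9.67% of all genes) and 0 were higher (7.87%). They were CD34, HLF, MLLT3, CD200, BAALC, MMRN1, ARHGAP22, DNMT3B, FAM30A, SETBP1 and MYB, from log2 -1.42 ± 0.35 for MMRN1 to -0.42 ± 0.11 for DNMT3B. HLF fell by 0.97 on the log2 scale (adjusted p = 0.00319) and CD34 by 0.43 (adjusted p = 0.0345). FAM30A had 983 CPM in replicate 1 and 677 in replicate 2 of PLDLS, 1085 and 652 in PLASS and 1247 and 664 in EV, so the numbers did not overlap. In all, 15 of 26 genes were lower in replicate 2 of all 3 groups, against 30.8% of all genes. The 5 that were higher in all 3 groups were SPINK2, MSI2, EGFL7, EMP1 and LAPTM4B, against 27.1%. The count of 0 higher depended on the setting: DESeq2 called 2 higher (EGFL7 and EMP1) and 7 lower, and thinning all libraries to the shallowest gave 3 higher (SPINK2, EGFL7 and EMP1) and 8 lower. Over all tested genes the numbers of higher and lower calls were 1152 and 1415 with edgeR, 1279 and 958 with DESeq2, and 995 and 1052 when thinned. Leaving out any 1 of the 4 PLDLS and PLASS libraries lowered the number of calls, both among the 26 genes and over all tested genes. The summed level of 10 mast cell and basophil markers moved with the number, at 61.2 to 67.9 CPM in the replicate 1 libraries and 205 to 243 in those of replicate 2. Within it CLC, the eosinophil and basophil galectin, stood at 17.2 to 22.6 CPM against 61.6 to 96.5. Other lists moved with the number too. Of 5 tested endothelial markers 3 were lower in replicate 2 and 0 higher, with a summed level of 179 to 201 CPM in replicate 1 and 119 to 151 in replicate 2. Of 14 mitosis genes 5 were lower and 0 higher, of 9 megakaryocyte markers 2 were lower and 1 higher, of 10 dendritic and Langerhans cell markers 3 were lower and 1 higher, of 12 monocyte markers 3 were higher and 0 lower, and of 9 neutrophil markers 2 were higher and 1 lower. The part of these cells, of division, of depth and of any batch in the difference between the numbers was not tested.

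**Figure D4:**
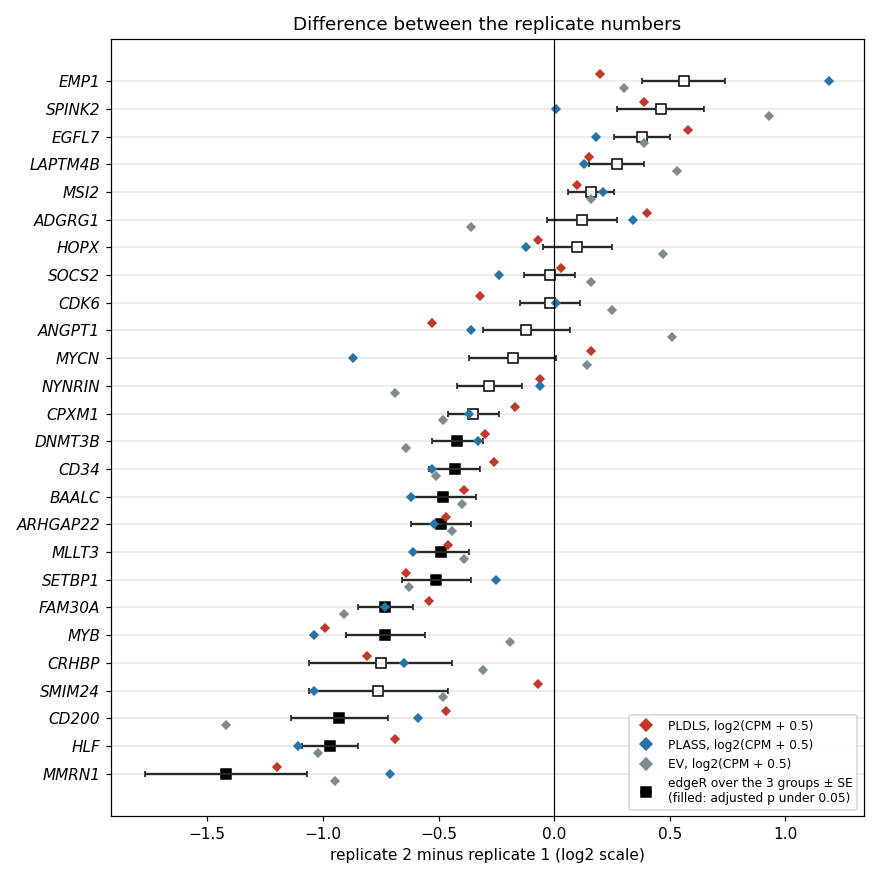
Replicate 2 minus replicate 1 on the log2 scale is on the horizontal axis for the 26 tested genes. Coloured diamonds are the 3 groups and black squares the edgeR estimate with its SE, filled where the adjusted p was under 0.05. The 11 filled squares all lie left of 0.

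Of the 17 genes of the leukaemic stem cell score, 16 are among the 33 and the remaining one is ZBTB46, a dendritic cell transcription factor. With the block, 14 of the 17 were tested, 0 passed in PLDLS against PLASS (1.52% of all tested genes higher, 0.513% lower), and EMP1 alone passed in PLDLS against EV (3.24% higher, 1% lower). The median log2 difference of the 14 was -0.01 against PLASS and -0.17 against EV, and the summed level was 3370 to 4280 CPM over the 6 libraries. ZBTB46 had 44.3 and 48.2 CPM in PLDLS, 70.7 and 57.3 in PLASS and 61.6 and 66.6 in EV, and did not pass (adjusted p = 0.234 against PLASS).

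Salmon also divides the reads of a gene between its transcripts. The 2616 nt CD34 transcript, which encodes the full-length protein, made up 67.5% to 77.9% of CD34 TPM, and the 4087 nt DNMT3B transcript, whose product lacks part of the catalytic region, made up 68.0% to 77.9%. The main HLF transcript of 5721 nt made up 80.8% to 100% of HLF TPM. For MLLT3, the 6688 nt transcript took 3.27% and 6.72% in PLDLS, 21.4% and 7.62% in PLASS and 28.4% and 10.1% in EV. It was lowest in PLDLS, where it rested on 16.95 and 8.098 estimated reads, beside 232.6 and 31.96 in PLASS and 733.6 and 94.03 in EV. The 2 MLLT3 transcripts are of nearly the same length, and how many bases tell them apart was not checked. Because strand was not kept, a gene's reads may include those of an antisense transcript at the same place.

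Other regulators of blood stem cells moved both ways. Of 24 tested from a list of 26, 2 were higher in PLDLS than in PLASS with the block and 1 was lower. Over all tested genes, 1.52% were higher and 0.513% lower, which is also the background of the lists that follow. GFI1B, a transcriptional repressor that acts in erythroid and megakaryocyte cells, was higher (log2 1.76 ± 0.24, adjusted p = 0.011). HOXA9 was higher too (log2 0.73 ± 0.14, adjusted p = 0.0388). GFI1, a repressor that supports granulocyte formation, was lower (log2 -1.15 ± 0.21, adjusted p = 0.0319). Of 20 surface and signalling genes 3 were higher and 0 lower: ESAM by log2 2.03 ± 0.19, CD93 by 1.40 ± 0.20 and the hyaluronan receptor CD44 by 0.78 ± 0.16. ESAM stood at 25.6 and 25 CPM in PLDLS and between 5.53 and 7.22 in the other 4 libraries. Of 14 further stem cell expression markers, CYTL1 (log2 1.39 ± 0.15) and ITM2C (log2 0.72 ± 0.15) were higher and ALDH1A1, a retinal dehydrogenase, was lower (log2 -1.14 ± 0.22). Without the block 0 genes of these 3 lists passed, and 5, 4 and 4 had an unadjusted p under 0.05, against 4.93% of all tested genes.

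Markers of maturation and division were measured beside these genes. In PLDLS against PLASS with the block, 3 of 12 monocyte markers were higher, S100A8 (log2 1.96 ± 0.24), S100A9 (1.51 ± 0.18) and MNDA (1.17 ± 0.24), and 0 were lower, beside 1.52% of all tested genes higher and 0.513% lower. By the sign of the estimate 5 of the 12 were positive and 7 negative, with a median log2 difference of -0.06. Of 9 neutrophil markers PADI4 and CEBPE were higher and 0 were lower, with 3 positive and 6 negative estimates and a median of -0.12. LTF, MMP8 and FCGR3B were at 0 in all 6 libraries. Of 10 dendritic and Langerhans cell markers 1 was higher and 1 lower, with 3 positive and 7 negative estimates and a median of -0.85. The Langerhans cell lectin CD207 was the one higher (log2 2.58 ± 0.26), at 20.2 and 20.0 CPM against 3.99 and 2.60 in PLASS, and IRF8, a monocyte and dendritic cell transcription factor, was lower (log2 -2.50 ± 0.42). The summed level of the 14 monocyte markers was 418 and 481 CPM in PLDLS, 418 and 402 in PLASS and 427 and 372 in EV. Of 14 mitosis genes, 14 had estimates below PLASS and 1 passed, the cyclin gene CCNB1 (log2 -0.69 ± 0.13, adjusted p = 0.0331). Their summed level was 2677 and 2479 CPM in PLDLS, 4015 and 2852 in PLASS and 3698 and 2681 in EV. The part of these markers in the differences of HLF, MLLT3, MYB, CD200, EGFL7 and EMP1 was not tested.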

How the data were processed

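Poly-A selected, non-stranded RNA-seq of 6 MUTZ3 libraries was used. The submitters' processing notes name bcl2fastq 1.8.4, Salmon 0.3.1 and hg38, without options. Per the file headers, the deposited tables give estimated counts (not normalized), TPM and effective length for 69004 transcripts. Of these 99.4% were named from RefSeq or GENCODE (399 were not; 0.067% to 0.0891% of reads) and summed to 27722 genes. Deposited TPM values served for levels between genes, and the deposited effective length as an offset in an alternative.

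Estimated counts were rounded and tested with edgeR 4.0.16 in R 4.3.3 (quasi-likelihood, TMM, filterByExpr, Benjamini-Hochberg, threshold 0.05; standard errors are the log2 difference over the root of F). All 6 libraries entered 1 fit with a term per group, which left 3 residual degrees of freedom. CPM are TMM-scaled, and within-number differences use log2(CPM + 0.5). Replicate pairs gave 17.1 to 79.3 in chi-square per gene and counted separately. Deviations of same-numbered libraries correlated at 0.7 (PLDLS and PLASS), 0.54 (PLDLS and EV) and 0.616 (PLASS and EV) over 10580 genes of at least 5 CPM. The replicate number was therefore also fitted as a block (2 residual degrees of freedom; biological coefficient of variation 0.13 against 0.236). No label says what a number shares; the pairing rests on these correlations.

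All 33 genes are named; from the other lists, up to 4 genes past the threshold with the smallest p. Members and lists were chosen with earlier results of these data known. Alternatives used DESeq2 1.42.0, limma-voom (limma 3.58.1), DESeq2 size factors, no filter, 1 CPM in 4 libraries, the length offset, only the 2 groups compared, thinning to 5578302 reads and leaving out each library. Tests were tested on simulated data. Promoter letters came from RefSeq on GRCh38.p14.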

Additional observations from a re-analysis of the deposited data

How the results depend on the processing

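Without a block, PLDLS against PLASS gave 0 genes past the threshold, with 121 by DESeq2 and 240 with no expression filter, and 0 of the 26 listed genes, with 1 (HLF) with no filter. With the replicate block there were 297 genes and 1 listed gene. The blocked alternatives gave 381 genes and 6 listed genes with DESeq2, 328 and 2 with limma-voom, 290 and 1 with DESeq2 size factors, 588 and 7 with no filter, 306 and 2 with the length offset, 933 and 11 with only the 2 groups compared, and 275 and 2 when thinned. Leaving out 1 library gave 0 to 1098 genes and 0 to 13 listed genes, highest with the block and without EV replicate 2.

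PLDLS against EV gave 2 genes and 0 listed genes without a block, with 267 and 4 by DESeq2, 5 genes by limma-voom, 471 and 7 with no filter, 4 genes with the length offset and 10 with only the 2 groups compared. With the replicate block it gave 621 and 6, then 708 and 9 (DESeq2), 732 and 7 (limma-voom), 603 and 6 (DESeq2 size factors), 1023 and 10 (no filter), 675 and 8 (length offset), 817 and 8 (2 groups) and 608 and 8 (thinned). Leaving out 1 library gave 0 to 1942 genes and 0 to 10 listed genes.

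PLASS against EV gave 0 genes without a block, 3 by DESeq2 and 33 with no filter, the latter with EMP1 as 1 listed gene. With the replicate block it gave 2, then 24 (DESeq2, with EMP1 as 1 listed gene), 1 (limma-voom), 2 (DESeq2 size factors), 37 (no filter, with 1 listed gene), 2 (length offset), 15 (2 groups) and 2 (thinned). Leaving out 1 library gave 0 to 398 genes and 0 to 4 listed genes. Replicate 2 against 1 gave 2567 genes (1152 higher, 1415 lower) and 11 listed genes (0 higher). The genes were 1270 higher and 1300 lower with DESeq2 size factors and 1677 and 1667 with the length offset, and the listed genes 1 and 9, and 0 and 12. With no filter 2 listed genes were higher and 12 lower. Leaving out 1 library gave 726 to 3164 genes and 3 to 12 listed genes.

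Of 701 values of single listed genes per comparison, 62 (PLDLS against PLASS), 117 (PLDLS against EV) and 8 (PLASS against EV) newly passed, and 0 that passed changed sign. Estimates past the threshold neither without a block nor in the alternative changed sign for 9, 8 and 21 of the 26 genes. Without a block 0 listed genes passed in these comparisons, so no call could be lost in them. In replicate 2 against replicate 1, where listed genes did pass, 48 of 337 values lost their call. With the block, 2 residual degrees of freedom and 2 numbers limit the precision. Blocked fits without 1 library, or with only the 2 groups compared, have fewer residual degrees of freedom. Where a group was left with 1 library it was assumed to vary like the others. By depth, a count of 0 allows up to 0.0838 CPM in the deepest library and 0.537 in the shallowest. The cause of these changes was not tested.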
